A study of Mus musculus with 6 samples.

Results

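Heat shock proteins are molecular chaperones, which hold, refold or pass on unfolded proteins. The HSP70, HSP110 and HSP90 families use ATP for this, the small heat shock proteins hold unfolded chains without it, and J-domain, BAG and other co-chaperones feed clients to HSP70 and HSP90 or release them. In stressed cells the transcription factor HSF1 forms trimers, binds heat shock elements in promoters and raises the transcription of the inducible members, while other members are made at high levels in unstressed neurons and glia. Genes of this group were taken from the count tables by symbol (Hspa, Hspb, Hsp90a, Dnaja and Dnajb genes, Hspd1, Hspe1, Hsph1, Bag1 to Bag6, Cryab, Stip1, Chordc1 and Hsf1, without the endoplasmic reticulum genes Hspa5 and Dnajb9 and without pseudogenes), which gave 52 of 43432 genes. Of these, 50 had at least 1 count and 42 passed the filter on low counts and were tested, among 13560 genes tested in all.

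The samples were spinal cord tissue of wildtype C57BL/6 mice. In the injured group (SCI, n = 3 mice) one side of the cord was bruised at cervical level 5 by an impactor set to 50 kdyn, and tissue was taken 4 h after the impact. The sham group (n = 3 mice) had the laminectomy at that level, which opens the bone over the cord, and no impact. Tissue collection is timed from the injury only, and neither age nor sex of the mice is given in the sources used here. Surgery is thus common to both groups, and no uninjured, unoperated cord is compared here. Libraries count the 3′ ends of transcripts, so levels do not scale with transcript length and are given as CPM, the count relative to the library's total as scaled by TMM, without a length correction. In bulk tissue, fewer cells of a type and less RNA per cell cannot be told apart.

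Total counts lay between 3407176 (sham 3) and 11543633 (sham 2). Markers of neurons, astrocytes and oligodendrocytes were present in each library, with summed levels of 4210 to 6088 CPM, 2097 to 3220 CPM and 5656 to 9420 CPM. Markers of hepatocytes, which are no cells of the cord, were present too (Alb and Ahsg above all), with summed levels between 44991 CPM (sham 3) and 104922 CPM (sham 2) and overlapping groups. Sham 3 was thus the library with the least of these liver transcripts and the most neuronal ones, and sham 2 the reverse. Erythroid markers were higher in every SCI library (1584 to 4282 CPM) than in any sham library (611 to 841 CPM), as were neutrophil markers (54.5 to 72.9 against 15.5 to 48.3 CPM) and adipocyte markers (11.7 to 20.6 against 5.68 to 9.45 CPM). The most abundant markers of these lists were the globin genes Hbb-bs and Hba-a1, then S100a9 and S100a8, and Plin4 and Cidec, while the adipocyte markers Plin1 and Lep had no count in any library and the groups overlapped without Plin4. For each of those 3 lists the exact two-sided permutation test gave p = 0.1, the smallest that 3 against 3 allows (adjusted p = 0.467 over 14 lists). By edgeR over all genes, 5 of 5 tested erythroid markers were called higher (Hba-a1 by 3.02 ± 0.42 on the log2 scale, adjusted p = 0.00124) and none of the neutrophil or adipocyte markers was. In the other lists 1 marker was called, P2ry12 of microglia, which fell by 1.91 on the log2 scale (SE 0.37, edgeR adjusted p = 0.0157). Summed microglia markers overlapped between the groups, but without Csf1r, the most abundant, every SCI library lay below every sham library. The other 6 summed to 109.6, 109.4 and 109.3 CPM in sham and 71.8, 89.1 and 67.2 CPM in SCI. Of the 7 tested microglia markers, 1 had a positive log2 fold change.

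At 4 h after contusion, 1 of the 42 tested members was higher and none was lower at an adjusted p under 0.05. The higher one was Hspb1, which encodes the small heat shock protein HSP25 (HSP27 in humans), a chaperone that also binds actin filaments and is among the genes known from reactive astrocytes. Over all 13560 genes, 0.885% were called higher and 0.0442% lower by the same rule. An unadjusted edgeR p under 0.05 was reached by 4 members, Hspb1, Hspb6, Hspb11 and Dnaja3, the last 2 with a lower level in SCI, where 7.38% of all genes reached it. DESeq2 and limma voom also called Hspb1 higher and 0 members lower. The median log2 fold change was -0.050 over the members and -0.0025 over all genes tested. The members' log2 fold changes ran from -1.27 to 1.38, and 33 of the 42 (78.6%) were smaller than 0.5 in either direction, where 85.7% of all genes tested were.

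**Figure D1:**
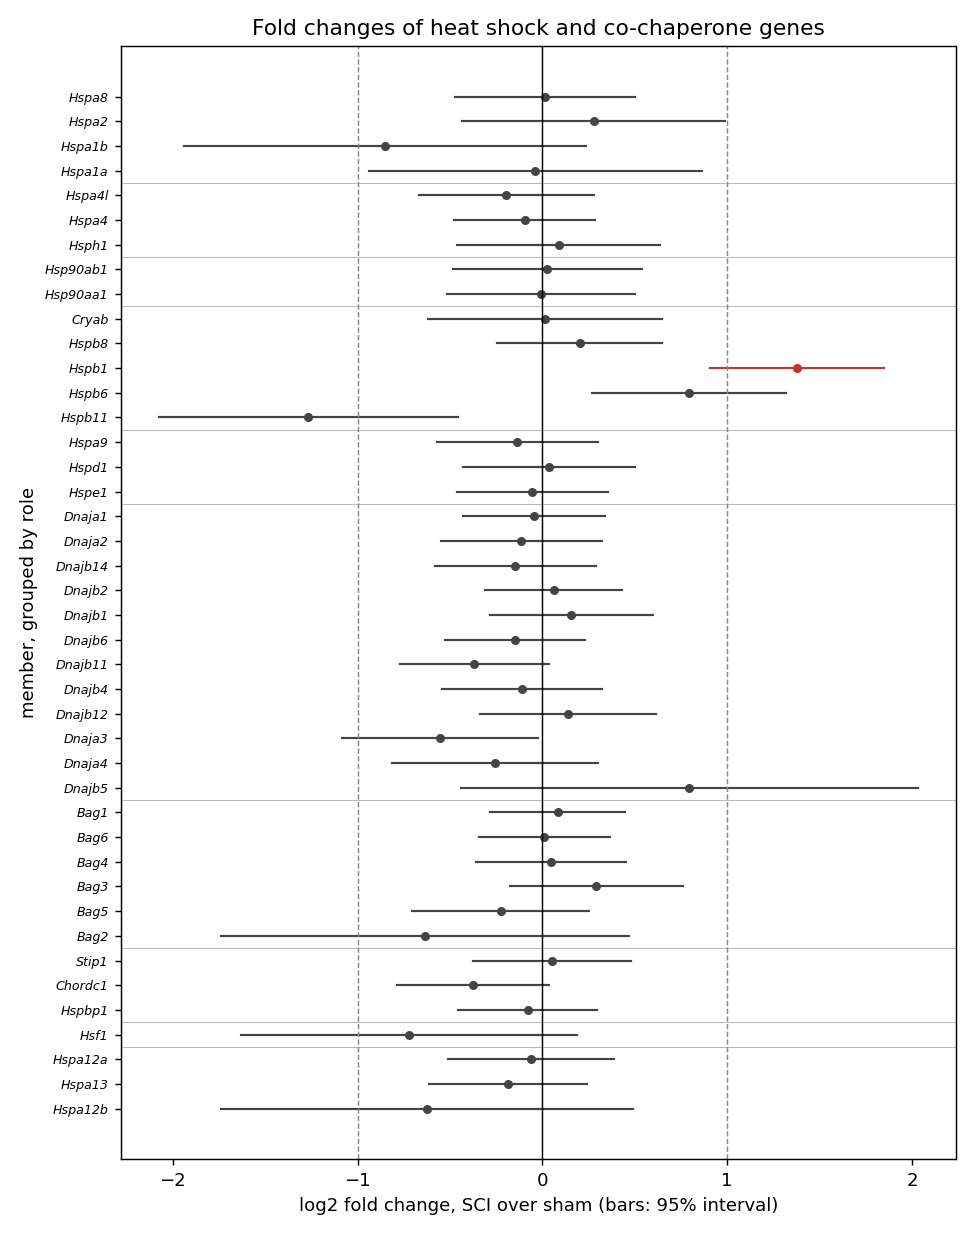
Log2 fold change of SCI over sham (x axis) for each of the 42 tested members (y axis, grouped by role), with bars for the 95% interval from the edgeR fit and dashed lines at 2-fold. Hspb1, drawn in red, is the member that passed the test, and 33 members have an interval that lies within 2-fold in both directions.

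The intervals give what these libraries leave possible. For 33 of the 42 members the 95% interval of the log2 fold change lay within -1 to 1, that is, within 2-fold in both directions, where 71% of all genes tested had such an interval. These included the tested HSP90 and HSP110 genes and Hspd1, Hspe1 and Hspa9. The other 9 were Hspb1, Hspb6, Hspb11, Hspa1b, Hsf1, Dnaja3, Dnajb5, Bag2 and Hspa12b. All 9 were scarce, with a mean over the 6 libraries of at most 22.2 CPM (Dnaja3).

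Genes named as small heat shock proteins held both ends of the range of log2 fold changes, Hspb1 the upper and Hspb11 the lower. Hspb1 was at 7.62, 10.01 and 11.7 CPM in sham libraries 1 to 3 and at 23.9, 26.9 and 24.2 CPM in SCI libraries 1 to 3. Every injured cord lay above every sham cord, and the injured cords lay close to each other. The mean went from 9.76 ± 2.03 to 24.99 ± 1.62 CPM (SD, n = 3 mice each), a log2 fold change of 1.38 ± 0.22 (SE; 95% interval 0.90 to 1.85; edgeR quasi-likelihood test, adjusted p = 0.00374). Among the 120 genes called higher, Hspb1 stood in place 91 by size of the log2 fold change. Its call was lost without sham 1, the library in which it was lowest (log2 fold change 1.21 ± 0.26, edgeR adjusted p = 0.0589), and was kept without each of the other 5 libraries. With the hepatocyte level of each library as a covariate it was 1.37 ± 0.21 (edgeR adjusted p = 0.000423). Of the cells that may carry Hspb1, astrocytes had summed marker levels of 2705 ± 567 CPM in sham against 2798 ± 88.3 in SCI, and mural cells of 99.8 ± 13.2 against 89.9 ± 11.8 CPM, with overlapping groups also without the most abundant marker of each list. Endothelial markers overlapped as well (288 ± 38.2 against 300.3 ± 19.9 CPM), but without Slco1a4, the most abundant, the other 7 summed to 186, 187 and 169 CPM in sham and 189.7, 203 and 199.6 CPM in SCI. Every SCI library then lay above every sham library, as for Hspb1. Ly6c1 (log2 fold change 0.95 ± 0.26, edgeR adjusted p = 0.190) and Pecam1 (0.62 ± 0.25, edgeR adjusted p = 0.546) had all 3 injured cords above all 3 sham cords, and Cldn5 had them below (-0.996 ± 0.54, edgeR adjusted p = 0.744). Single endothelial markers thus went both ways. Of the 8 tested, 4 had a positive log2 fold change, the median was 0.011, and none was called by edgeR. The part of these endothelial transcripts, of the erythroid and neutrophil ones and of Plin4 in the rise of Hspb1 was not tested.

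Hspb1 lies at chromosome 5, 135887919 to 135889563 on the plus strand (GRCm38; ENSMUSG00000004951), and no other annotated gene overlaps it. Of the 451 words of 50 bases in the last 500 bases of its transcript, 72 (16.0%) also occur in the pseudogene Hsp25-ps1, which had a count of 0 in all 6 libraries. Its promoter is shown because Hspb1 is the called member, beside that of Hspa1b, the textbook heat-inducible HSP70 gene, and that of Hspe1, whose window overlaps the promoter of its divergent neighbour Hspd1. Capitals mark each match to a heat shock element of 2 inverted units (GAANNTTC or TTCNNGAA, where N is any base, read on both strands). The windows run from 250 bases before to 50 bases after the annotated start (RefSeq, GRCm38.p6), 5′ to 3′ on the strand of the gene, at chr5:135887669-135887968 (plus), chr17:34959189-34959488 (minus) and chr1:55087898-55088197 (plus).
Hspb1: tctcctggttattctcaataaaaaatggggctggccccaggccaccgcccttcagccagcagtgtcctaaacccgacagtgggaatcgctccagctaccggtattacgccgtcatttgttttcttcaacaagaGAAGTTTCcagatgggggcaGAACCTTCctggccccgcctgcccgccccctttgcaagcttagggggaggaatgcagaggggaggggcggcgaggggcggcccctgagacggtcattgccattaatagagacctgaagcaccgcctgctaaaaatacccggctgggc
Hspa1b: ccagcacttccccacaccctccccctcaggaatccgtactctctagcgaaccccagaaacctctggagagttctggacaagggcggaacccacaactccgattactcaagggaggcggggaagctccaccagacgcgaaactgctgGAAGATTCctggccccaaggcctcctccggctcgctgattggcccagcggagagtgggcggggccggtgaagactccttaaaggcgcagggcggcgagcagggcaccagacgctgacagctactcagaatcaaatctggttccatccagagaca
Hspe1: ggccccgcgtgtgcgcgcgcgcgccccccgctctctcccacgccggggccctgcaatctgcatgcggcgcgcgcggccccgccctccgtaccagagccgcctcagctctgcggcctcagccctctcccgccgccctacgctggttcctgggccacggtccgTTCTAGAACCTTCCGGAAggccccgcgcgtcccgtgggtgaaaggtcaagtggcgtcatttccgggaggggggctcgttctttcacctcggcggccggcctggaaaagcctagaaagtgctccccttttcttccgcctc
The Hspb1 window held 2 matches, which begin at -117 and -97 from the start. The Hspa1b window held 1 at -104, and the Hspa1a window held 1 at the same distance. In the Hspe1 window 3 overlapping matches at -89, -84 and -79 make up a longer element. A match is a description of the letters and not a bound site.

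Promoter windows were at hand for 43 of the 52 members. None was at hand for Hsp90aa1, Hsp90ab1, Hspa8, Hspa9, Hspa13, Cryab, Hspb2, Bag4 and Hsf1, so the shares leave out both HSP90 genes. A 2-unit match was present in at least 1 window of 15 of these 43 (34.9%), against 17.0% of 27025 genes. A 3-unit match (GAANNTTCNNGAA or TTCNNGAANNTTC, which contains 2 overlapping 2-unit matches) was present in 5 of the 43 (11.6%), against 0.662% of all genes. Those 5 were Hspd1, Hspe1, Hsph1, Dnajb6 and Chordc1. The matches of Hspd1 and Hspe1 are the same stretch of DNA read on opposite strands, which is counted for each gene. None of these 5 passed the test after contusion, which is near the share over all genes tested (0.885% called higher and 0.0442% lower). Their log2 fold changes were 0.035, -0.054, 0.088, -0.15 and -0.38. A link between these elements and the levels was not tested.

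Hspb6, which encodes HSP20, a small heat shock protein abundant in muscle, was at 10.1, 10.5 and 6.51 CPM in sham and at 16.4, 18.5 and 13.1 CPM in SCI. Again every SCI library lay above every sham library, with a narrower gap than for Hspb1. Its log2 fold change of 0.79 ± 0.25 did not pass the test (95% interval 0.27 to 1.32; edgeR adjusted p = 0.291). Skeletal muscle markers overlapped between the groups (9.03 ± 4.63 CPM in sham against 8.86 ± 6.34 in SCI). Mural cell markers overlapped too (99.8 ± 13.2 against 89.9 ± 11.8 CPM), and 5 of the 7 tested had a positive log2 fold change. The part of these markers in the level of Hspb6 was not tested. Hspb6 overlaps Proser3 and Lin37 on the other strand of chromosome 7 and Gm38670 on its own, so its reads cannot be told apart from theirs with certainty.

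Hspb11, named as a small heat shock protein but known as IFT25, a subunit of the transport trains of cilia, went the other way. It was at 4.20, 5.49 and 5.96 CPM in sham and at 1.57, 2.89 and 1.98 CPM in SCI, so every SCI library lay below every sham library. Its log2 fold change of -1.27 ± 0.38 did not pass the test (edgeR adjusted p = 0.249), and it rests on 111 counts in sham and 43 in SCI. It overlaps Gm12850 on its own strand of chromosome 4, so reads of these genes cannot be told apart with certainty. Summed markers of the ependyma, the ciliated lining of the central canal, overlapped between the groups (521 ± 165 CPM in sham against 543 ± 122 in SCI), but nearly all of that sum was Rarres2. The other 7 ependymal markers were scarce, and their sum was lower in every SCI library, as Hspb11 was. It was 10.9, 11.2 and 11.4 CPM in sham and 10.03, 10.7 and 6.15 CPM in SCI. Single markers went both ways. Of the 6 tested ependymal markers, 3 had a positive log2 fold change, and the median was -0.00024. None of these markers was called by edgeR, and their part in the level of Hspb11 was not tested. Groups that did not overlap were found in 4 members, 2 with SCI above (4.76% of the tested members) and 2 with SCI below (4.76%), where all genes gave 7.73% and 5.94%. The fourth was Dnajb11, described below with the J-domain proteins.

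Cryab, the alpha B-crystallin of oligodendrocytes and astrocytes, was the most abundant small heat shock gene and also the most uneven among the abundant ones. It was at 143, 127 and 283 CPM in sham and at 204, 230 and 121 CPM in SCI. The highest and the lowest value of the 6 both came from libraries numbered 3, and the groups overlapped fully. Its log2 fold change was 0.013 ± 0.30 (95% interval -0.62 to 0.64). Without sham 3 it was 0.46 and without SCI 3 it was 0.23, while leaving out any of the other 4 libraries gave a value below 0, down to -0.21. Oligodendrocyte markers had their lowest sum in SCI 3 (5656 CPM), as Cryab did, and their part in its level was not tested. Cryab overlaps Hspb2 on the opposite strand of chromosome 9.

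Hspb8, the partner of BAG3 in selective autophagy, was at 92.2, 124.6 and 74.8 CPM in sham and at 104.8, 100.5 and 132 CPM in SCI. The groups overlapped, with a log2 fold change of 0.20 ± 0.21. The remaining small heat shock genes did not pass the filter. Hspb2 had 24 counts in sham and 13 in SCI, Hspb3 had 2 and 1, and Hspb7 had 1 and 2. Hspb9 had a count of 0 in each library, which allows up to 3 counts, or between 0.260 CPM in sham 2 and 0.880 CPM in sham 3. These limits cover counting error only.

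**Figure D2:**
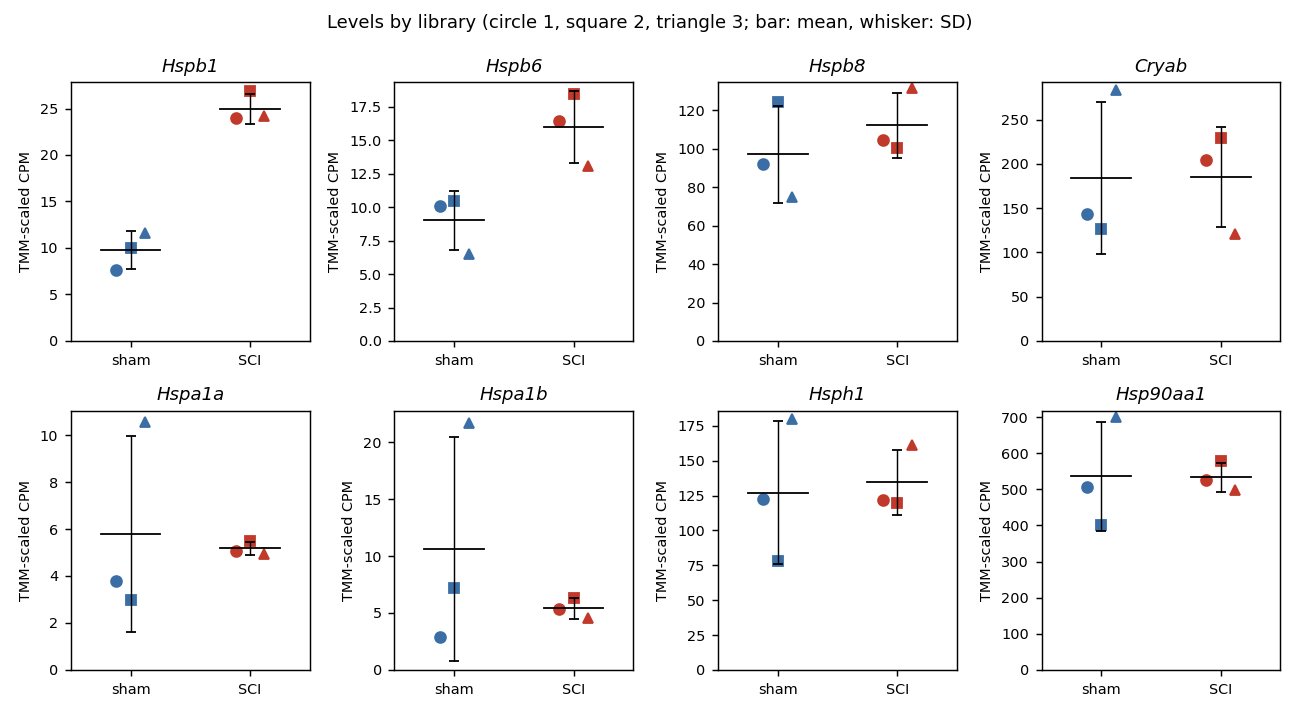
TMM-scaled CPM (y axis, from 0) of 8 members in each library, with sham in blue and SCI in red, marker shape for the library number, a bar for the mean and whiskers for the SD over 3 mice. Hspb1 and Hspb6 have every SCI library above every sham library, while in Hspa1a, Hspa1b, Hsph1, Hsp90aa1 and Cryab the highest of the 6 values is that of sham 3.

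The cytosolic HSP70 genes are the classical readout of the heat shock response, and their inducible members were neither abundant nor called. Hspa1a was at 3.81, 2.98 and 10.6 CPM in sham and at 5.08, 5.49 and 4.96 CPM in SCI. Hspa1b was at 2.89, 7.22 and 21.7 CPM in sham and at 5.32, 6.35 and 4.56 CPM in SCI. In both genes sham 3 lay far above all other libraries and the injured cords lay within 1.11-fold and 1.39-fold of each other, so the spread sat in the sham group, where the highest and lowest Hspb1 values differed by 1.53-fold but those of Hspa1b by 7.51-fold.

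The log2 fold change was -0.037 ± 0.42 for Hspa1a and -0.85 ± 0.51 for Hspa1b (edgeR adjusted p = 0.994 and 0.806), with 95% intervals of -0.94 to 0.87 and -1.94 to 0.24. Neither sign was settled. Without sham 3 the values were 0.61 ± 0.37 and 0.078 ± 0.39 (edgeR adjusted p = 0.639 and 0.980). With all libraries, Hspa1a was also above 0 with limma voom (0.31) and with a replicate block (0.082), while Hspa1b stayed below 0 with both (-0.27 and -0.53). Both genes lie on the minus strand of chromosome 17, Hspa1b at 34956436 to 34959238 and Hspa1a at 34969190 to 34972156, and encode nearly the same protein, and Hspa1a overlaps Gm20481 on the other strand. None of the 451 words of 50 bases in the last 500 bases of either transcript occurs in another annotated gene, so 3′ reads without errors tell them apart if transcripts end as annotated. With both counted as 1 gene, the level was 16.4 ± 13.9 CPM in sham against 10.6 ± 1.17 in SCI (log2 fold change -0.54 ± 0.42, edgeR adjusted p = 0.877).

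Hspa8, the constitutive HSC70 of all cells, was far more abundant. It was at 239, 165 and 289 CPM in sham and at 226, 273 and 199 CPM in SCI, with a log2 fold change of 0.014 ± 0.23 (95% interval -0.47 to 0.50). Of the words of 50 bases near its 3′ end, 81.8% occur in other annotated genes, all of them predicted gene models, and how reads with several matches were treated is not stated, so its level is uncertain. Hspa2, best known from the testis, was at 7.94 ± 1.02 CPM in sham against 9.58 ± 4.62 in SCI (log2 fold change 0.28 ± 0.33). Hspa1l, a germ cell gene beside Hspa1a, had 5 counts in each group and was not tested.

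HSP110 proteins exchange the nucleotide of HSP70 and help it to take aggregates apart. Hsph1, the heat-inducible one, was at 122.8, 78.0 and 180 CPM in sham and at 122, 120 and 162 CPM in SCI. The groups overlapped fully, and the extremes were sham 2 and sham 3. Its log2 fold change was 0.088 ± 0.26, or 0.42 ± 0.21 without sham 3 (edgeR adjusted p = 0.548) and -0.18 ± 0.19 without sham 2. Hspa4 was among the steadier members, with 147 ± 10.4 CPM in sham against 138 ± 12.8 in SCI (log2 fold change -0.095 ± 0.18). Hspa4l was at 222 ± 63.2 and 193 ± 22.5 CPM (-0.20 ± 0.22).

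HSP90 made up the largest part of these transcripts. Hsp90ab1, the constitutive form, was at 1557, 1611 and 1859 CPM in sham and at 1592, 1589 and 1940 CPM in SCI, the highest level of any member. Library 3 was the highest in either group, and the log2 fold change was 0.027 ± 0.24 (95% interval -0.48 to 0.54). Hsp90aa1, the stress-inducible form, was at 506, 402 and 700.3 CPM in sham and at 525, 577 and 497 CPM in SCI (log2 fold change -0.0074 ± 0.24, 95% interval -0.52 to 0.50). Counts of Hsp90ab1 were 2.65 to 4.00 times those of Hsp90aa1 in sham and 2.75 to 3.90 times in SCI. All members together held between 0.401% (sham 2) and 0.594% (sham 3) of the counts, and the 3 injured cords lay inside that range, at 0.471%, 0.505% and 0.465%.

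**Figure D3:**
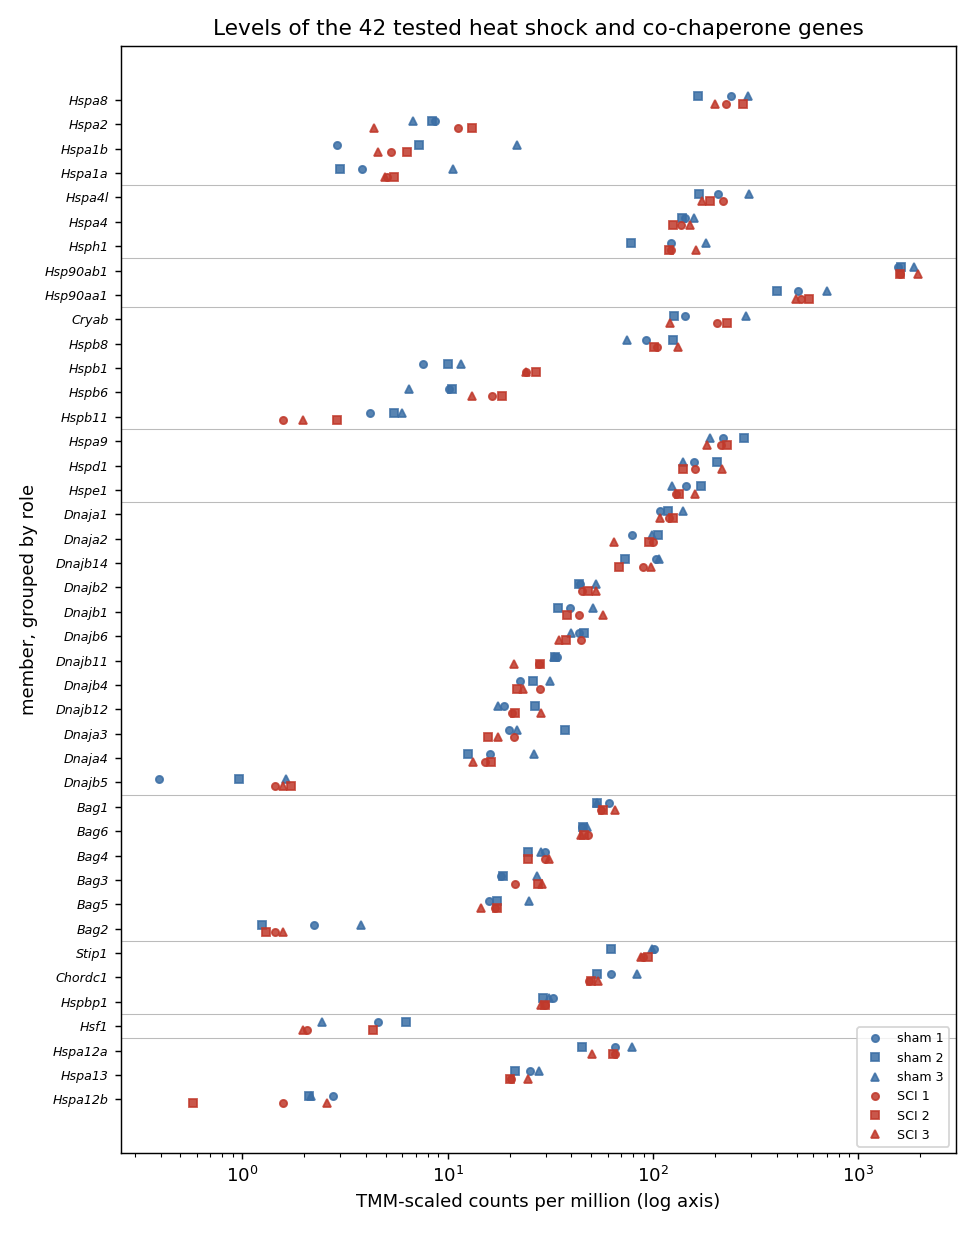
TMM-scaled CPM on a log axis (x) of the 42 tested members (y, grouped by role), with 1 point per library, sham in blue and SCI in red. The members span from under 1 CPM for Dnajb5 in sham 1 to 1940 CPM for Hsp90ab1 in SCI 3, and the colours are apart in Hspb1, Hspb6, Hspb11 and, by a narrow gap, Dnajb11.

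The mitochondrial chaperones fold proteins imported into the matrix, with HSP60 (Hspd1) as a barrel, HSP10 (Hspe1) as its lid and mortalin (Hspa9) as the import motor. Hspd1 and Hspe1 are divergent genes on chromosome 1 whose annotated starts lie 111 bases apart. Hspd1 was at 158, 205 and 140.2 CPM in sham and at 160.2, 140.04 and 217 CPM in SCI, and Hspe1 at 144, 172 and 124 CPM in sham and at 130, 134 and 161 CPM in SCI. The ratio of Hspd1 to Hspe1 counts stayed between 1.05 and 1.35 over the 6 libraries. Log2 fold changes were 0.035 ± 0.22 for Hspd1, -0.054 ± 0.19 for Hspe1 and -0.13 ± 0.20 for Hspa9. All 3 had their highest sham value in sham 2, the library with the most hepatocyte transcripts, and their lowest in sham 3. The part of those transcripts was not tested beyond the fit with the hepatocyte level as a covariate, which called none of them. Of the 3′ words of Hspe1, 53.2% occur in other annotated genes, most of them its pseudogenes, so its level is uncertain.

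J-domain proteins bring clients to HSP70 and start its ATP hydrolysis. Of 16 Dnaja and Dnajb genes, 12 were tested and none was called. They had 4 positive and 8 negative log2 fold changes and a median of -0.11. Over all genes tested, 0.885% were called higher, 0.0442% were called lower and 49.7% had a positive log2 fold change. Dnajb1, the HSP40 that HSF1 induces with HSP70, was at 39.3, 34.5 and 51.2 CPM in sham and at 43.5, 38.1 and 56.9 CPM in SCI. In each group library 3 was the highest and library 2 the lowest, the groups overlapped, and the log2 fold change was 0.16 ± 0.21 (95% interval -0.28 to 0.60). Dnajb1 lies outside the rule for named genes and was chosen after its values were seen.

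Dnajb11, the J-domain protein of the endoplasmic reticulum that serves BiP, was at 34.0, 33.2 and 32.8 CPM in sham and at 27.9, 28.3 and 21.0 CPM in SCI. Every SCI library lay below every sham library. The log2 fold change of -0.37 ± 0.19 did not pass the test (edgeR adjusted p = 0.718). Dnaja3, the mitochondrial J-domain protein, was at 20.0, 37.3 and 21.7 CPM in sham and at 20.9, 15.7 and 17.6 CPM in SCI. Its log2 fold change of -0.55 ± 0.25 (edgeR adjusted p = 0.650) leaned on sham 2, without which it was -0.20 ± 0.22. Sham 2 is the library with the most hepatocyte transcripts. Their part in the level of Dnaja3 was not tested beyond the fit with the hepatocyte level as a covariate, which did not call it. Dnaja3 overlaps Vasn on its own strand and Coro7 on the other. The most abundant J-domain genes were Dnaja1, with 122 ± 16.1 CPM in sham against 118 ± 8.14 in SCI (log2 fold change -0.045 ± 0.18), and Dnaja2, with 94.3 ± 14.01 and 87.0 ± 19.3 CPM (-0.11 ± 0.20). Dnajb5 was the scarcest of those tested, at 0.995 ± 0.617 CPM in sham against 1.59 ± 0.141 in SCI (0.79 ± 0.58). The other 6 tested, Dnaja4, Dnajb2, Dnajb4, Dnajb6, Dnajb12 and Dnajb14, had log2 fold changes between -0.25 and 0.14. Dnajb3 had 16 counts in sham and 19 in SCI, Dnajb13, of sperm and cilia, had 3 and 0, Dnajb7 had 0 and 1, and Dnajb8 had no count. These 4 were not tested.

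Most BAG proteins release the client of HSP70 by nucleotide exchange. Bag3, which HSF1 induces and which directs clients to autophagy, was at 18.3, 18.6 and 27.1 CPM in sham and at 21.2, 27.4 and 28.7 CPM in SCI. Sham 3 lay within the range of the injured cords while sham 1 and sham 2 lay below it, and the log2 fold change of 0.29 ± 0.22 did not pass the test (95% interval -0.18 to 0.76; edgeR adjusted p = 0.868). Bag6 had the smallest standard error of the tested members, with 46.1 ± 1.40 CPM in sham against 46.4 ± 1.96 in SCI (log2 fold change 0.011 ± 0.17). Bag1 was at 56.0 ± 4.38 and 59.4 ± 5.40 CPM (0.082 ± 0.17), and Bag5 at 19.4 ± 4.85 and 16.3 ± 1.60 CPM (-0.23 ± 0.22). Bag2 was at 2.43 ± 1.28 and 1.45 ± 0.143 CPM (-0.64 ± 0.52), again with its highest value in sham 3. Bag4 had a log2 fold change of 0.048 ± 0.19.

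Among the other co-chaperones, Stip1 (HOP), which links HSP70 to HSP90, was at 87.4 ± 21.5 CPM in sham against 90.3 ± 3.47 in SCI (log2 fold change 0.053 ± 0.20). Chordc1, an HSP90 partner also induced by heat, was at 62.1, 53.05 and 83.8 CPM in sham and at 48.7, 49.95 and 53.7 CPM in SCI. SCI 1 and SCI 2 lay below every sham library and SCI 3 within the sham range, with a log2 fold change of -0.38 ± 0.19 (edgeR adjusted p = 0.718) and of -0.18 ± 0.18 without sham 3. Hspbp1, an exchange factor of HSP70, was at 31.0 ± 1.65 and 29.3 ± 0.841 CPM (-0.079 ± 0.18). Hspbap1 had 26 counts in sham and 19 in SCI and was not tested.

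Hsf1 itself was scarce, at 4.60, 6.26 and 2.44 CPM in sham and at 2.06, 4.33 and 1.98 CPM in SCI. The groups overlapped and the log2 fold change was -0.72 ± 0.43 (95% interval -1.63 to 0.19; edgeR adjusted p = 0.797). HSF1 is known to act through trimer formation and modification of protein already present, which a transcript level does not measure. The divergent HSP70 relatives were not called either. Hspa12a had a log2 fold change of -0.060 ± 0.21, Hspa13, of microsomes, -0.19 ± 0.20, and Hspa12b, of endothelium, -0.62 ± 0.52 at 2.35 ± 0.355 CPM in sham against 1.58 ± 1.000 in SCI.

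Many members shared a pattern across libraries that did not follow the groups. Sham 3 was the highest of the 6 libraries in 18 of the 42 tested members (42.9%), where it was the highest in 23.1% of all genes tested. Among these 18 were Hspa1a, Hspa1b, Hsph1, Hsp90aa1, Hspa8, Cryab, Dnaja4, Dnaja1 and Chordc1. The median deviation of the members in sham 3 from their mean over the 6 libraries was 0.198 on the log2 scale, with 31 of 42 above 0, and over all genes it was 0.0125. In the injured cords that median lay between -0.0682 and -0.0121. Without sham 3, Hspb1 was still the member called (log2 fold change 1.49 ± 0.24, edgeR adjusted p = 0.00123), and the median over the members was 0.047. Sham 3 was also the library with the fewest counts, the fewest hepatocyte transcripts and the most neuronal marker transcripts (6088 CPM, against 4210 and 5440 CPM in the other sham cords and 4738 to 4825 CPM in the injured ones). Their part in the pattern was not tested.

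**Figure D4:**
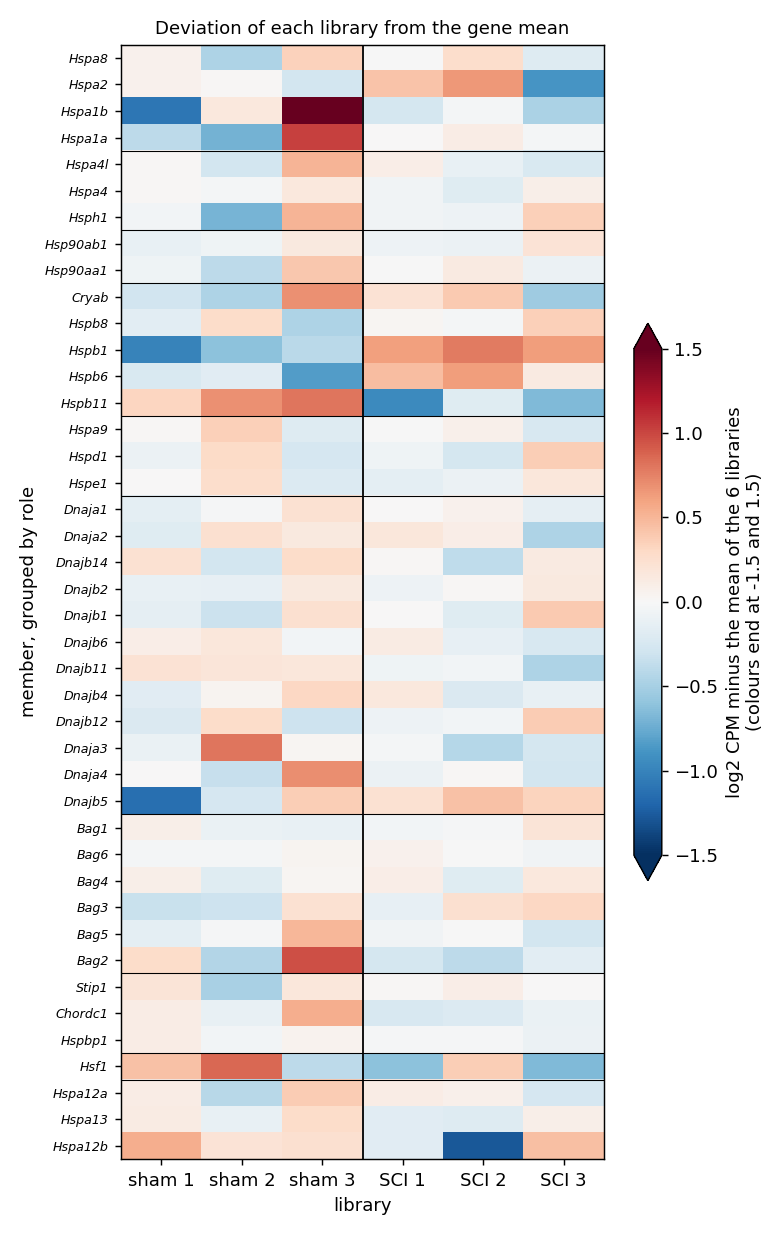
Log2 CPM of each tested member (rows, grouped by role) in each library (columns) minus its mean over the 6 libraries, from blue (below) to red (above). Hspb1 is blue in the 3 sham columns and red in the 3 SCI columns, while Hspa1a, Hspa1b, Hsph1, Hsp90aa1, Cryab and Dnaja4 are red in the column of sham 3.

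Genes that work with the members but lie outside them were counted in 5 lists. By edgeR, 0 of 80 tested genes were called in either direction, with 4 at an unadjusted p under 0.05. Over all genes tested, 0.885% were called higher, 0.0442% were called lower and 7.38% reached that unadjusted p. A count of 0 among 80 is thus near the share over all genes. With DESeq2 and with limma voom the count of called genes among the 80 was 0 as well. The median log2 fold change over the 80 was 0.019. Of 19 tested HSP90 co-chaperones none was called, and the smallest p was that of Cacybp, at 85.5 ± 5.70 CPM in sham against 66.9 ± 3.17 in SCI (log2 fold change -0.35 ± 0.17, edgeR adjusted p = 0.684). The same held for 14 subunits of the CCT chaperonin and prefoldin, which fold actin and tubulin, where Cct2 had the smallest p (-0.31 ± 0.19), and for 24 Dnajc genes, where Dnajc6, the auxilin of clathrin uncoating, had it (-0.83 ± 0.29, edgeR adjusted p = 0.419).

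In the list of heat shock factors, their regulators and other heat shock genes, 11 of 12 genes were tested. Ier5, an early gene whose protein activates HSF1, was at 27.6, 30.8 and 17.4 CPM in sham and at 40.9, 34.9 and 39.4 CPM in SCI. Every SCI library lay above every sham library, and the log2 fold change of 0.58 ± 0.21 did not pass the test (edgeR adjusted p = 0.455). It passed with the hepatocyte level as a covariate (0.70 ± 0.17, edgeR adjusted p = 0.0358). Among 12 chaperone genes of the endoplasmic reticulum and mitochondria outside the members, Sdf2l1 had the smallest p (-0.74 ± 0.34, edgeR adjusted p = 0.668).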

How the data were processed

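The authors deposited 1 table of read counts per sample (6 libraries, whole numbers per Ensembl gene, not normalized). Per the labels' design text, QuantSeq Forward reads of 50 bases from 1 µg of RNA were aligned with STAR to mm10 with an Ensembl annotation of GRCm38. Per the submitters' processing notes, STAR 2.7.2b and DESeq2 1.24.0 were used. The counting tool is not given in the sources used here, nor are its strand setting, molecular identifiers and the handling of reads that match several places. Symbols were matched to 42462 of 43432 identifiers, and the others held 0.0884% of counts.

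The series' design text gives 3 mice a group, and p-values measure the spread between these libraries. No pair of libraries within a group agreed within sampling noise (chi-square per degree of freedom 6.97 to 38.0). Genes passing edgeR's filterByExpr (13560) were scaled by TMM and tested with edgeR 4.0.16 (R 4.3.3), robust quasi-likelihood F test, SCI against sham, with Benjamini-Hochberg adjustment over all genes and calls at 0.05. The standard error is the absolute log2 fold change over the square root of F, and 95% intervals use edgeR's total degrees of freedom. The fit was tested on simulated data. Alternatives were other scalings and filters, DESeq2 1.42.0, limma voom 3.58.1, a replicate block, a hepatocyte covariate and leaving out libraries. Positions and transcripts are from GENCODE M21 (GRCm38), promoters from RefSeq.

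Members and lists were chosen with earlier results of these data known. Named were called members, the 3 of each role with the smallest p and the 2 most abundant, and each related list's gene with the smallest p. Also named were the 2 most abundant markers of cell lists that moved with the groups and, with counts only, members below the filter. Some genes named lie outside this rule, among them Bag4, Dnajb1 and the endothelial markers Ly6c1, Pecam1 and Cldn5. Those endothelial markers were chosen after their values were seen.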

Additional observations from a re-analysis of the deposited data

How the results depend on the processing

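Hspb1 was the member called under RLE or total-count scaling, without a filter, with a stricter one, with DESeq2, limma voom, the replicate block (edgeR adjusted p = 0.0306) and the hepatocyte covariate. Leaving out single libraries gave 0 to 1 members higher, 0 only without sham 1. No member was lower in any of these fits. Members with a 95% interval within 2-fold, an alternative chosen after seeing the data, numbered 30 to 34 in all edgeR fits. Marker sums without each list's most abundant marker were also chosen after seeing the data. Groups did not overlap in 3 members with total-count scaling. Over all genes, 182 were higher and 42 lower without a filter, 208 and 25 with the hepatocyte covariate, and 62 to 132 and 1 to 14 when single libraries were left out. The lower genes numbered 3 with the stricter filter, 11 with DESeq2 and 1 with the replicate block. Related genes had 1 higher with the hepatocyte covariate (Ier5) and 0 otherwise.

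Same-numbered libraries did not deviate together (correlations -0.085, -0.065 and -0.17), so the numbers were not taken as pairs, and the replicate block gave 81 genes higher.

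Of 545 values of single genes under alternatives, 504 kept direction and side of the threshold, and 39 changed sign, all of genes without a call. Cause was not tested. With limma voom Hspa1a was at 0.31, with the replicate block Hspa1a was at 0.082 and Hsp90aa1 at 0.027, and with the hepatocyte covariate Hspa8 was at -0.037, Cryab at -0.043 and Hspe1 at 0.0075 (log2). The other changes of sign came from leaving out single libraries, where log2 fold changes ran from -1.35 to 0.078 for Hspa1b, from -0.0010 to 0.59 for Hspa2, from -0.39 to 0.61 for Hspa1a, from -0.19 to 0.21 for Hspa8, from -0.37 to 0.046 for Hspa4l, from -0.18 to 0.42 for Hsph1, from -0.084 to 0.11 for Hsp90ab1, from -0.19 to 0.23 for Hsp90aa1, from -0.21 to 0.46 for Cryab, from -0.25 to 0.020 for Hspa9, from -0.16 to 0.067 for Hspe1, from -0.17 to 0.20 for Hspd1, from -0.14 to 0.059 for Dnaja1, from -0.24 to 0.047 for Dnaja2, from -0.0024 to 0.14 for Bag1, from -0.023 to 0.034 for Bag6, from -0.15 to 0.16 for Stip1 and from -0.26 to 0.12 for Hspa12a.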
